A study of Saccharomyces cerevisiae with 8 samples.

Results

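The enzymes that make and break down threonine, serine and glycine in Saccharomyces cerevisiae were followed in fermenting yeast. They comprise 10 genes, chosen by systematic name: HOM3 (YER052C), HOM2 (YDR158W), HOM6 (YJR139C), THR1 (YHR025W), THR4 (YCR053W), GLY1 (YEL046C), SHM2 (YLR058C), SER3 (YER081W), SER33 (YIL074C) and CHA1 (YCL064C). The array carries 6256 genes with 1 probe each, and all 10 were among the 5938 kept after dim probes were removed. Their RNA was measured on 8 Agilent 2-colour arrays, 3 with samples from the beginning of fermentation (T0h) and 5 with samples taken 6 h later (T6h), in a study whose title concerns ethanol made from sugarcane. The T0h samples were 1 each of PE-2, JP1 and CAT-1, which per the labels are diploid yeasts from Brazilian mills, PE-2 and CAT-1 heterothallic and JP1 homothallic. At T6h there were 2 samples of JP1, 2 of CAT-1 and 1 of the laboratory strain BY4741, which carries no working HIS3, LEU2, MET17 or URA3. Cells for all groups came from successive cultures in YPD, a rich medium with glucose. Each sample, labelled red, was hybridised with BY4741 T0h RNA labelled green, so every log2 ratio is sample over that common reference.

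Threonine is made from aspartate. HOM3, HOM2 and HOM6 lead from aspartate to homoserine, from which methionine synthesis branches off, and THR1 and THR4 turn homoserine into threonine. Serine is made from the glycolytic intermediate 3-phosphoglycerate, glycine from threonine or serine, and CHA1 degrades serine and threonine, which are known to induce it.

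The 10 genes were well above background in red on all 8 arrays, in both spots of each probe, and none was saturated or marked as a bad spot. In the green reference channel all 10 were well above background on the 6 arrays of slide 1. On slide 2, with replicate 4 of JP1 and replicate 5 of CAT-1 (both T6h), 3 of the 10 were (HOM6, SER3 and CHA1), and the ratios of the other 7 genes there rest on a green signal near background. The Spearman correlation between replicate spots lay between 0.947 and 0.976 for slide 1 arrays and was 0.642 and 0.719 for those of slide 2. Median red signals ran from 60 and 83 on the CAT-1 T6h arrays to 1360 on the PE-2 array. The 4 marker genes that BY4741 lacks were not well above background in red on the BY4741 array (25.5 to 28.5) and were on all 7 industrial arrays (71.25 to 22157). The labels give no dye-swapped array, so dye bias was not averaged out. The deposited value table was not used, because 5 of its 8 columns followed another array better than the one they are named for. Those 5 include all 3 T0h columns, which correlated at 0.154, 0.303 and 0.143 with their own arrays, so each time comparison depends on the names of the scanner files.

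From T0h to T6h in JP1 and CAT-1, genes of the threonine pathway rose, the serine and threonine deaminase gene CHA1 fell about 24.2-fold, and the pair of genes for the start of serine synthesis moved in opposite directions. HOM2, HOM3, THR1, THR4 and SER33 rose and SER3 and CHA1 fell, while HOM6, GLY1 and SHM2 did not pass the test. Thus 5 of the 10 genes rose and 2 fell, where 12.7% of all 5938 genes rose and 6.97% fell. The median difference was 0.68 on the log2 scale for the 10 genes and -0.0045 for all genes. The comparison took the strains seen at both times, 4 arrays against 2, with strain as a term. Each of these strains has a single T0h array. Leaving that array out makes the time change that of the other strain alone, here and in the comparison with the BY4741 change. Differences are log2 with their standard error, and genes were called by limma's moderated test (two-sided) where the p adjusted by Benjamini-Hochberg across the 5938 genes was under 0.05. The design text names biological replicates, but how cultures were separated is not described, so the p-values cover only the spread among these arrays, which may be technical.

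**Figure D1:**
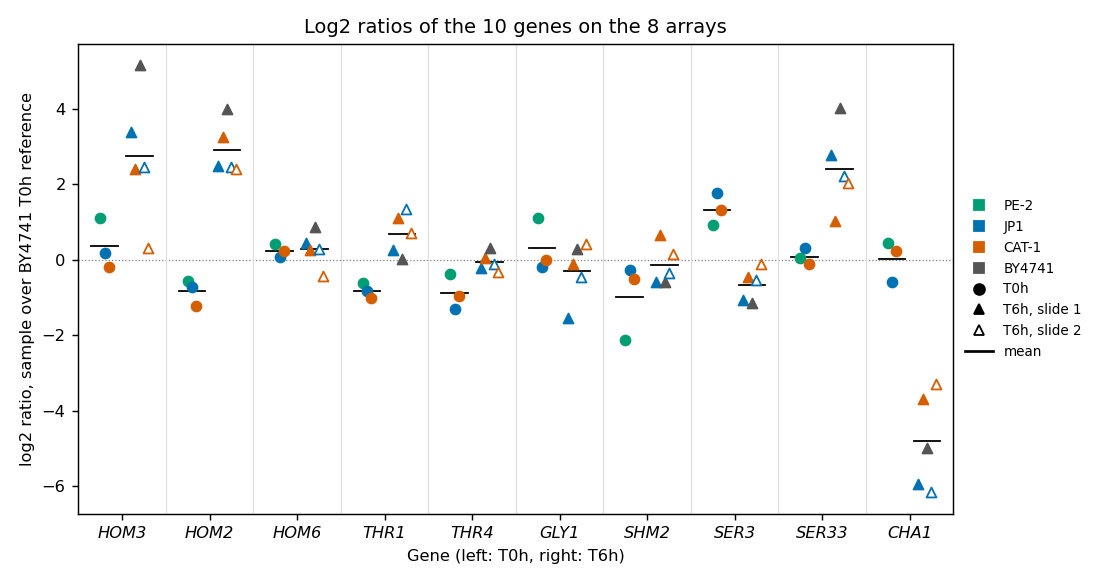
Log2 ratio of each gene to the BY4741 T0h reference on the 8 arrays, with circles for the 3 T0h samples, triangles for the 5 T6h samples (open on slide 2), colours for strains and bars for means. HOM2 and SER33 lie higher at T6h than at T0h without overlap, SER3 and CHA1 lie lower, and HOM6 and GLY1 overlap.

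HOM3 encodes aspartate kinase, the entry to the branch and the step that threonine inhibits. Its log2 ratios at T0h were 1.12 in PE-2, 0.17 in JP1 and -0.19 in CAT-1. After 6 h the values were 3.39 and 2.46 in JP1, 2.40 and 0.30 in CAT-1, and 5.16 in BY4741. The BY4741 value was the highest, and CAT-1 T6h replicate 5, on slide 2, lay below PE-2 at T0h, so the times overlapped over all 8 arrays. In JP1 and CAT-1 alone they did not, and HOM3 rose by 2.15 ± 0.55 (SE; limma adjusted p = 0.0187). On slide 1 alone the difference was 2.91 (limma adjusted p = 0.00932). The call was lost with a normexp offset of 0 (2.61, limma adjusted p = 0.0944). It was also lost without JP1 T0h replicate 2 (1.55, the change of CAT-1 alone) or CAT-1 T0h replicate 3 (2.76, that of JP1 alone).

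HOM2 encodes aspartate semialdehyde dehydrogenase, the next enzyme. Its ratios at T0h were -0.56 in PE-2, -0.72 in JP1 and -1.23 in CAT-1. By T6h the ratios were 2.50 and 2.46 in JP1, 3.25 and 2.40 in CAT-1, and 4.00 in BY4741. Every T6h array lay above every T0h array, and the gene rose by 3.63 ± 0.35 (SE; limma adjusted p = 9.53e-05), about 12.4-fold. The call held in each of the 14 alternatives that measured it, between 3.20 and 4.60.

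HOM6, for homoserine dehydrogenase, completes the path to homoserine. Its ratios were 0.42, 0.07 and 0.23 at T0h in PE-2, JP1 and CAT-1, and at T6h 0.45 and 0.30 in JP1, 0.25 and -0.43 in CAT-1, and 0.86 in BY4741. The times overlapped. The difference in JP1 and CAT-1 was -0.0092 (95% confidence interval -0.73 to 0.71; limma adjusted p = 0.987), an interval that leaves out the estimates of HOM2 and HOM3.

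THR1 encodes homoserine kinase. Its ratios at T0h were -0.63 in PE-2, -0.83 in JP1 and -1.02 in CAT-1. At T6h they were 0.27 and 1.34 in JP1, 1.11 and 0.71 in CAT-1, and 0.0099 in BY4741. All T6h values were higher than all T0h values, with BY4741 the lowest of the T6h arrays. THR1 rose by 1.78 ± 0.36 (SE; limma adjusted p = 0.00575). The call was lost without JP1 T0h replicate 2 (1.93, CAT-1 alone) or CAT-1 T0h replicate 3 (1.63, JP1 alone).

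THR4 encodes threonine synthase, the last enzyme of the branch. Its ratios were -0.37, -1.32 and -0.97 at T0h in PE-2, JP1 and CAT-1. After 6 h the values were -0.22 and -0.12 in JP1, 0.04 and -0.33 in CAT-1, and 0.31 in BY4741. The times did not overlap, though PE-2 at T0h and CAT-1 T6h replicate 5 lay close together. THR4 rose by 0.99 ± 0.30 (SE; limma adjusted p = 0.0384), and this call was lost in 10 of 14 alternatives. Among them were slide as a block (1.06, limma adjusted p = 0.0587) and slide 1 alone (1.06, 0.0661). It was also lost without JP1 T0h replicate 2 (0.83, CAT-1 alone) or CAT-1 T0h replicate 3 (1.15, JP1 alone). The same held without JP1 T6h replicate 1 (0.99, limma adjusted p = 0.0621), CAT-1 T6h replicate 2 (0.93, 0.104) or JP1 T6h replicate 4 (0.94, 0.0714).

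**Figure D2:**
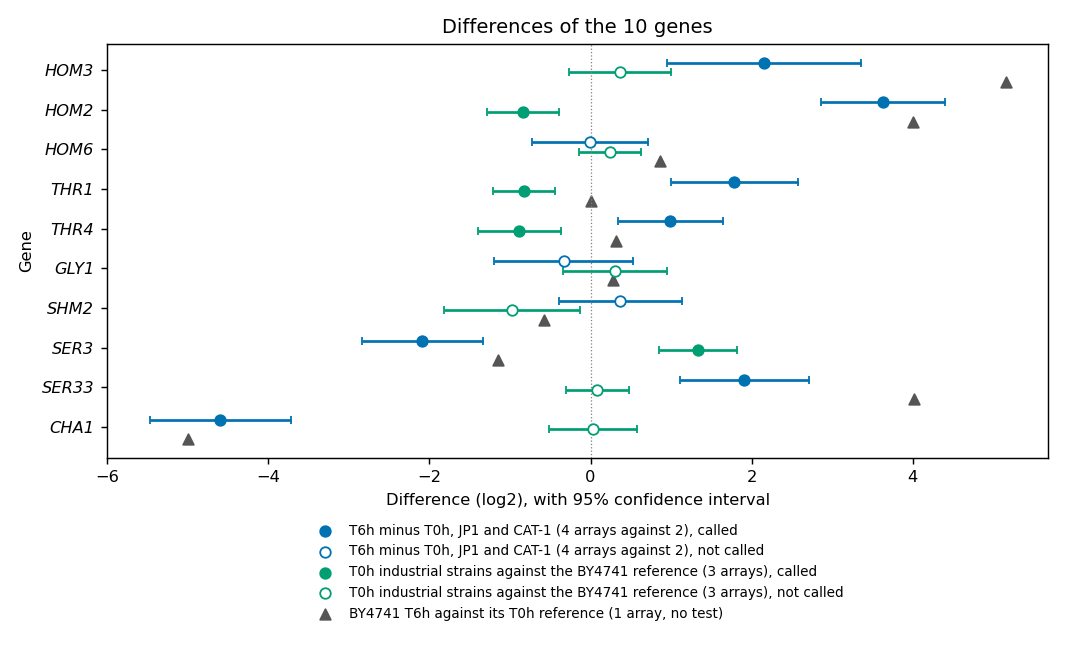
Log2 differences of each gene with 95% confidence intervals, for T6h against T0h in JP1 and CAT-1 (blue) and for the 3 industrial T0h samples against the BY4741 reference (green), filled where limma's adjusted p passed 0.05. Grey triangles give the single BY4741 T6h array, at 5.16 for HOM3, 4.01 for SER33 and -5.00 for CHA1.

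GLY1 and SHM2 supply glycine. GLY1 encodes threonine aldolase, which splits threonine into glycine and acetaldehyde. Its ratios at T0h were 1.10 in PE-2, -0.19 in JP1 and -0.0046 in CAT-1. By T6h the ratios were -1.55 and -0.45 in JP1, -0.12 and 0.41 in CAT-1, and 0.28 in BY4741. The times overlapped, with PE-2 the highest array and JP1 T6h replicate 1 the lowest, and the difference in JP1 and CAT-1 was -0.33 (95% confidence interval -1.20 to 0.53; limma adjusted p = 0.597). The red signal alone, quantile-normalised between arrays, gave -1.01 for GLY1 (limma adjusted p = 0.0104), and on slide 1 alone -0.84 (0.132).

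SHM2, for the cytosolic serine hydroxymethyltransferase, interconverts serine and glycine. Its ratios at T0h were -2.13 in PE-2, -0.28 in JP1 and -0.52 in CAT-1. At T6h they were -0.58 and -0.36 in JP1, 0.67 and 0.15 in CAT-1, and -0.58 in BY4741. PE-2 lay below every other array and the remaining values overlapped. The difference in JP1 and CAT-1 was 0.37 (95% confidence interval -0.40 to 1.13; limma adjusted p = 0.503).

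SER3 and SER33 encode isoenzymes of 3-phosphoglycerate dehydrogenase, which begins serine synthesis. SER3 ratios at T0h were 0.91 in PE-2, 1.77 in JP1 and 1.31 in CAT-1. After 6 h the values were -1.07 and -0.54 in JP1, -0.45 and -0.12 in CAT-1, and -1.15 in BY4741. Every T6h array lay below every T0h array, and SER3 fell by 2.09 ± 0.34 (SE; limma adjusted p = 0.00185).

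SER33 went the other way. Its ratios at T0h were 0.04 in PE-2, 0.30 in JP1 and -0.10 in CAT-1. By T6h the ratios were 2.77 and 2.23 in JP1, 1.02 and 2.03 in CAT-1, and 4.01 in BY4741. The times did not overlap, and SER33 rose by 1.91 ± 0.36 (SE; limma adjusted p = 0.00442). Without JP1 T0h replicate 2, which leaves the change of CAT-1 alone, both calls were lost, with SER3 at -1.60 and SER33 at 1.62.

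The ratio of SER33 minus that of SER3 was -0.87 in PE-2, -1.47 in JP1 and -1.41 in CAT-1 at T0h. It was 3.84 and 2.77 in JP1, 1.48 and 2.15 in CAT-1, and 5.16 in BY4741 at T6h. The sign was thus negative on all 3 T0h arrays and positive on all 5 T6h arrays. Each value is a difference of log2 ratios to the same reference and does not say which isoenzyme had more mRNA. The genes are paralogs, and cross-hybridisation between their probes was not tested.

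CHA1, the catabolic serine and threonine deaminase gene, had ratios of 0.46 in PE-2, -0.58 in JP1 and 0.23 in CAT-1 at T0h. At T6h they were -5.95 and -6.17 in JP1, -3.68 and -3.29 in CAT-1, and -5.00 in BY4741. No T6h array came near a T0h array, and CHA1 fell by 4.60 ± 0.40 in JP1 and CAT-1 (SE; limma adjusted p = 5.85e-05). The call held in all 15 alternatives, between -5.48 and -3.71.

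Its red spot signal at T0h was 72393.5 in PE-2, 13425.5 in JP1 and 24759.75 in CAT-1. At T6h it was 318.25 and 85 in JP1, 172.75 and 250.25 in CAT-1, and 319.25 in BY4741. These signals are not scaled between arrays, and all 5 at T6h were well above background.

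The unscaled red signal of SER3 was between 10237 and 20322 at T0h and between 253.25 and 1691 at T6h. HOM2 went from 460.25 to 5685.5 and 3581.5 in JP1, and from 556.5 to 1018.75 and 1159.5 in CAT-1. SER33 went from 250.25 to 1905.5 and 1186.5 in JP1, but in CAT-1 from 354.5 to 85.5 and 147.5. In CAT-1 the unscaled signal was lower at T6h for 9 of the 10 genes, HOM2 being the exception. These include 4 of the 5 genes whose ratios rose: besides SER33, HOM3 went from 304.5 to 165.5 and 206.25, THR1 from 150.75 to 86 and 94, and THR4 from 711.25 to 113 and 151.75. The median red signal of all CAT-1 genes went from 585 to 60 and 83 over the same samples, and the part of that drop in these values was not tested. The share of all genes with a lower unscaled signal in CAT-1 at T6h was not counted. A ratio describes a gene relative to the other genes on its array and gives neither RNA per cell nor the number of cells. The cause of the dim red signal on the CAT-1 T6h arrays, biological or technical, was not tested. With red signal alone, quantile-normalised, HOM2 (3.49), HOM3 (2.59), THR1 (1.82), THR4 (0.82) and SER33 (1.81) rose and SER3 (-2.71), CHA1 (-4.99) and GLY1 fell. That setting called 42.2% of all genes in either direction, against 19.7% for the ratios.

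**Figure D3:**
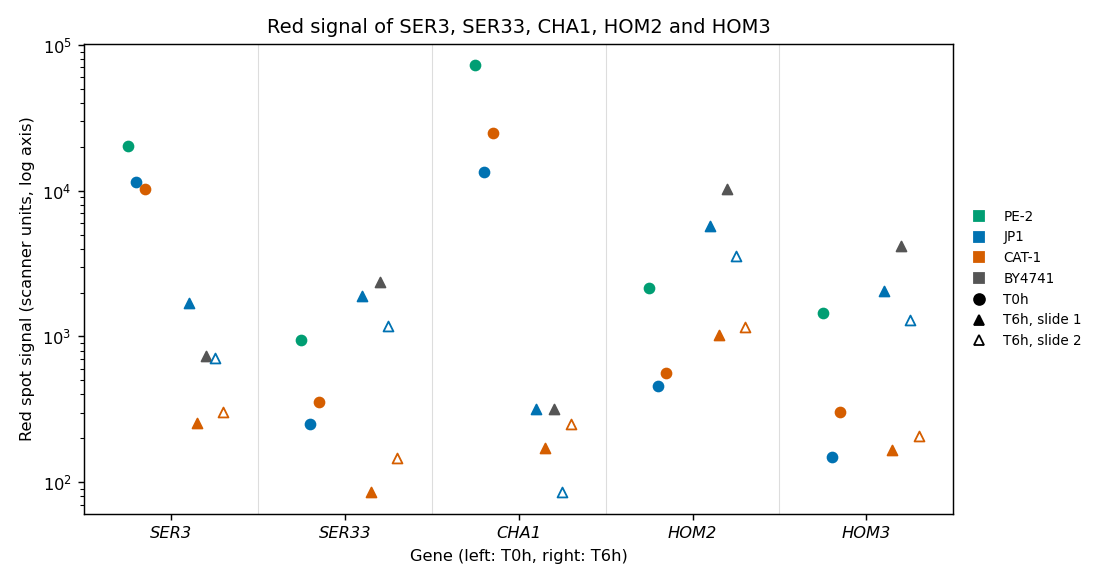
Red spot signal in scanner units on a log axis, not scaled between arrays, for 5 of the genes, with circles for T0h and triangles for T6h (open on slide 2). CHA1 runs from 13425.5 to 72393.5 at T0h and from 85 to 319.25 at T6h, and levels of different genes are not comparable because each has its own probe.

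Over all 8 arrays, where PE-2 has no T6h sample and BY4741 no T0h sample in red, 3 of the 10 genes rose (HOM2, THR1 and SER33) and 2 fell (SER3 and CHA1). Among all genes 9.72% rose and 5.93% fell. HOM3, at 2.38 (limma adjusted p = 0.0718), and THR4, at 0.82 (limma adjusted p = 0.0766), did not pass. HOM3 passed on slide 1 alone (3.29, limma adjusted p = 0.0194) and without CAT-1 T6h replicate 5 (2.99, 0.0119). Without CAT-1 T0h replicate 3, THR1 (1.41, 0.0606) and SER33 (2.24, 0.0575) no longer passed. The times did not overlap in 6 genes, with HOM2, THR1, THR4 and SER33 higher and SER3 and CHA1 lower at T6h. Of all genes 13.2% were higher and 11.8% lower without overlap.

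The T0h ratios set the industrial strains against the BY4741 reference before fermentation. SER3 was higher in the industrial strains, by 1.33 ± 0.20 (SE, 3 arrays; limma adjusted p = 0.00609). HOM2 was lower by a difference of -0.84 ± 0.19 (limma adjusted p = 0.0178), THR1 by -0.83 ± 0.16 (0.0122) and THR4 by -0.89 ± 0.21 (0.0230). All 3 strains had the same sign in each of these genes, which is not separate support because the same 3 ratios picked them. So 1 of the 10 genes was higher and 3 were lower, where 15.2% of all genes were higher and 17.5% lower. The median was 0.058 for the 10 genes and 0.00049 for all genes. SHM2 was at -0.98 ± 0.35 (limma adjusted p = 0.0779), with PE-2 at -2.13 far from the other strains, and passed without JP1 (-1.32, 0.00948). CHA1 was at 0.034 (95% confidence interval -0.52 to 0.58). The test sets 3 ratios against 0 and leaves out the spread of BY4741 itself. Without CAT-1 T0h replicate 3 none of the 4 genes passed, with SER3 at 1.34 (limma adjusted p = 0.0503), HOM2 at -0.64 (0.128), THR1 at -0.73 (0.101) and THR4 at -0.84 (0.132). Without JP1 T0h replicate 2, THR4 did not pass (-0.67, 0.0524).

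BY4741 as a sample was measured once, at T6h against its own T0h reference, so its own change is given as values with no test. HOM3 was at 5.16, SER33 at 4.01, HOM2 at 4.00 and HOM6 at 0.86. CHA1 was at -5.00 and SER3 at -1.15. THR4 was at 0.31, GLY1 at 0.28, THR1 at 0.0099 and SHM2 at -0.58. HOM3, HOM2, HOM6, THR4 and SER33 were higher there than on any JP1 or CAT-1 array at T6h, and THR1 and SER3 were lower. How many of all genes lay outside those arrays in this way was not counted, so it cannot be called particular to these genes. A single array also often lies outside a few others by order alone. With processed signals HOM2 was at 4.13 in BY4741 and higher, at 4.41, in CAT-1 T6h replicate 5. The slide 2 ratios of HOM3, HOM2, THR1, THR4 and SER33 rest on green signals near background.

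Changes over time in JP1 and CAT-1 were set against that 1 BY4741 array, which is assumed to vary like the industrial arrays because its own spread was not measured. Under that assumption HOM3 had a difference (industrial minus BY4741) of -3.00 ± 0.83 (SE; limma adjusted p = 0.0409) and SER33 of -2.10 ± 0.56 (limma adjusted p = 0.0347). So 0 of the 10 genes were higher and 2 lower, where 6.70% of all genes were higher and 5.24% lower. THR1 had a difference of 1.77 ± 0.55 (limma adjusted p = 0.0583), and 3 of the 10 had an unadjusted p under 0.05, as did 29.3% of all genes. The HOM3 call was lost in 7 of 12 alternatives and the SER33 call in 8. On slide 1 alone HOM3 was at -2.25 (limma adjusted p = 0.0619) and SER33 at -2.21 (0.0824). With slide as a block HOM3 was at -2.25 (0.0523). HOM3 was also lost without JP1 T0h replicate 2 (-3.61, 0.0832), CAT-1 T0h replicate 3 (-2.40, 0.184) or JP1 T6h replicate 4 (-2.89, 0.0839). SER33 was lost without those arrays (-2.39, -1.81 and -2.02) and without CAT-1 T6h replicate 2 (-1.84) or replicate 5 (-2.27).

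At T6h alone, JP1 and CAT-1 (4 arrays) were set against BY4741 (1 array, assumed to vary like the others). By limma 0 of the 10 genes and 0% of all genes passed, and 3 of the 10 had an unadjusted p under 0.05, against 15.1% of all genes. These were HOM3 at -3.02 ± 0.93 (limma adjusted p = 0.185), SER33 at -2.00 ± 0.62 (0.187) and HOM2 at -1.35 ± 0.48 (0.247). With red signal alone HOM3 (-2.16, limma adjusted p = 0.0415) and HOM2 (-1.97, 0.0430) passed, with 3.30% of all genes.

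Between CAT-1 and JP1, with time as a term, 0 of the 10 genes passed by limma, against 0.101% of all genes. An unadjusted p under 0.05 was found for 4 of the 10, and for 15.2% of all genes. CHA1 had the smallest adjusted p of the 10, with CAT-1 above JP1 by 1.98 ± 0.38 (SE; limma adjusted p = 0.0727). It passed with red signal alone (1.84, limma adjusted p = 0.0339). Under the strict filter on dim probes it passed with the estimate unchanged (1.98, 0.0309), where both fit and adjustment were rerun over 679 genes. Leaving out either T0h array gave the same fit, which passed (2.57, 0.0104) but compares the strains at T6h alone. These passes are therefore not separate results. HOM3 was at -1.17 ± 0.51 (0.317), SER33 at -0.79 ± 0.34 (0.314) and GLY1 at 0.82 ± 0.37 (0.324). SER33 passed with red signal alone (-0.94, 0.0473).

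CHA1 changed by between -5.59 and -5.37 from T0h in JP1, and by between -3.91 and -3.51 in CAT-1. The 2 replicates of each strain share 1 T0h array, and the strains did not overlap. The difference in CHA1 time change was 1.77 ± 0.60 (SE; limma adjusted p = 0.643), and 0 of the 10 genes and 0% of all genes passed this test of the difference, with 1 of the 10 and 5.74% of all genes at an unadjusted p under 0.05. No alternative gave a call among the 10.

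Other genes of these pathways were described by list in JP1 and CAT-1. Among 11 genes of serine, glycine and one-carbon metabolism, 2 rose and 2 fell (median -0.56), beside 12.7% and 6.97% of all genes. ADE3 and MTD1, for cytosolic enzymes that interconvert folate-bound carbon units, rose by 2.86 ± 0.31 (SE; limma adjusted p = 0.000182) and 1.66 ± 0.48 (0.0334). GCV3, for the H protein of the glycine cleavage complex, fell by 2.38 ± 0.32 (limma adjusted p = 0.000568), and AGX1, for an aminotransferase that makes glycine from glyoxylate, fell by 2.13 ± 0.39 (0.00372). The other 7 genes, SER1, SER2, SHM1, GCV1, GCV2, LPD1 and MIS1, did not pass and lay between -0.84 and 0.32.

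Among 4 genes of aspartate supply and of the use of homoserine or threonine, 2 rose and 0 fell (median 1.07), beside the same shares of all genes. MET2, which draws homoserine into methionine synthesis, rose by 3.19 ± 0.31 (SE; limma adjusted p = 0.000102). AAT1, for mitochondrial aspartate aminotransferase, rose by 1.10 ± 0.29 (limma adjusted p = 0.0238). ILV1, for the threonine deaminase of isoleucine synthesis, was at 1.05 (limma adjusted p = 0.0564), and AAT2, for the cytosolic aspartate aminotransferase, at 0.57 (0.192).

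Among 7 regulators and amino acid permeases, 0 passed by limma in either direction, with 2 (AGP1 and TAT1) at an unadjusted p under 0.05, as were 33.4% of all genes. GCN4, the general activator of amino acid synthesis genes, was at -0.38, and CHA4, the activator of CHA1, at -0.55. BAS1 and PHO2, which act together on purine and one-carbon genes, were at -0.60 and -0.041. The permease genes GNP1, AGP1 and TAT1 were at -0.20, 0.83 and -1.13. These are mRNA differences, and GCN4 is known to be regulated mainly in translation.

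At T0h against the BY4741 reference, 0 of the 11 serine, glycine and one-carbon genes were higher and 3 lower. Of the 4 aspartate and homoserine genes 0 were higher and 1 lower. Among the 7 regulators and permeases 1 was higher and 0 lower. Of all genes 15.2% were higher and 17.5% lower. BAS1 was higher, by 1.20 ± 0.15 (SE; limma adjusted p = 0.00399). ADE3 was lower by a difference of -2.04 ± 0.30 (limma adjusted p = 0.00536), GCV1 by -1.94 ± 0.53 (0.0342), LPD1 by -0.76 ± 0.20 (0.0304) and MET2 by -0.83 ± 0.18 (0.0158). GCV1 differed among the strains, at -3.72 in PE-2, -0.61 in JP1 and -1.50 in CAT-1. These listed genes were not tested with arrays left out.

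**Figure D4:**
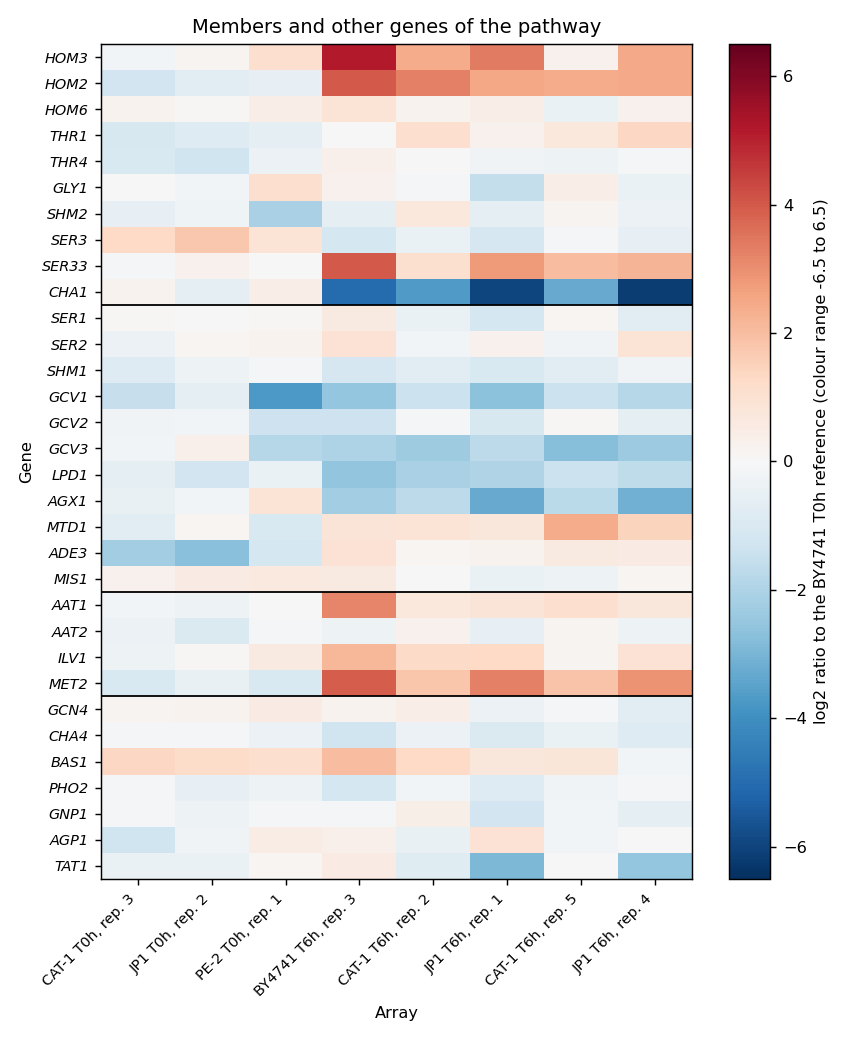
Log2 ratio to the BY4741 T0h reference, as colour, for the 10 genes (top block) and for 11 serine, glycine and one-carbon genes, 4 aspartate and homoserine genes and 7 regulators and permeases (lower blocks) on the 8 arrays. MET2 and HOM2 are red on all 5 T6h arrays, and CHA1 runs from -3.29 to -6.17 there.

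Across the 8 arrays the log2 ratios of HOM2 and SER3 had a Pearson correlation of -0.94, CHA1 and SER3 of 0.91, HOM2 and THR4 of 0.88, and SER3 and SER33 of -0.88. HOM6 correlated with HOM3 at 0.77, THR4 at 0.45, HOM2 at 0.24 and THR1 at -0.14. These describe 8 arrays that share a reference and are split mainly by time. Among 577 named genes whose ratios varied with an SD of at least 1, those most like CHA1 over the 8 arrays were JEN1 (0.997), HXT5 (0.989), SFC1 (0.986), YAT2 (0.984) and ALD6 (0.984). Those most like the mean of the 5 threonine branch genes were CIS3 (0.978), TOS3 (0.976), PLB3 (0.972), ARO4 (0.971) and PFK27 (0.969).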

How the data were processed

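Per the file headers, Feature Extraction 10.10.1.1 quantified the images, and the deposited spot signals and backgrounds are intensity values. The deposited log ratio is a log10 of red over green processed intensity, per the file headers. Deposited marks for spots above background, saturated or uneven have no unit (other). The submitters' processing notes name limma, with no version. For the deposited value table no unit is given, and no comparison used it. No column of another sample was present (0).

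Median signals, in place of the planned mean signals, were corrected by normexp (offset 50) and loess-normalised within arrays, with control spots at weight 0 and marked spots left out, in limma 3.58.1 under R 4.3.3. The 2 spots of each probe were averaged. A gene was kept if at least 3 of 8 arrays had it well above background in red or green (5938). All 7 tests were limma's moderated test, two-sided, adjusted over these genes, and the code was tested on simulated data. The number of arrays limits the precision. Symbols came from the reference gene table, which holds 5756 of the 6256 names.

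The members and the gene lists were chosen with earlier results of these data known. The rule named all 10 members, other pathway genes that passed in JP1 and CAT-1 or belong to the regulator list, and the 5 most similar genes. The T0h calls of ADE3, GCV1, LPD1, MET2 and BAS1, the other genes given by range, and AAT2 and ILV1 were named after their values were seen. The alternatives were another background correction, offset, filter, channel or slide setting, and leaving out each array. Red signal on slide 1 was added after the data were seen. No sequences are shown.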

Additional observations from a re-analysis of the deposited data

Results flagged for a closer look

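HOM2 in CAT-1 T6h replicate 2 stood at a log2 ratio of 3.25, apart from the other 3 JP1 and CAT-1 arrays at T6h (2.40 to 2.50), with a gap of 0.891 of the group's range. Chance flags about 1 in 20 such groups, and the rule was run for each of the 10 genes in both sets of T6h arrays. With processed signals the same array was at 3.33, between 2.66 in JP1 T6h replicate 1 and 4.41 in CAT-1 T6h replicate 5. It did not stand apart there. The ratios of HOM2 on slide 2 rest on a green signal near background. The time change of HOM3 in JP1 and CAT-1 differed from that in BY4741 by -3.00 (limma adjusted p = 0.0409), and that of SER33 by -2.10 (limma adjusted p = 0.0347). Both rest on a single BY4741 array, whose spread was assumed to be that of the other arrays, and the calls were lost in 7 (HOM3) and 8 (SER33) of 12 alternatives.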

How the results depend on the processing

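Of 970 values recomputed under alternatives, 863 were classed as unchanged, 56 lost a call or a large part of a count, and 21 gained one. For a gene, unchanged means the same direction and side of the threshold, and includes genes that passed neither before nor after. For a count of called members it allows a small change, such as 7 to 5 with offset 0 in JP1 and CAT-1 over time. The 863 therefore do not measure how often calls held. The remaining 30 values changed sign, in 16 results, and none of these passed the threshold before or after. The causes were not tested, except that the strict filter (well above background in both channels on every array used) keeps 679 genes and 3 of the 10 members in the comparisons that use slide 2. At T0h, all on slide 1, it keeps 5518 genes and all 10.

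Members called in JP1 and CAT-1 over time went from 7 of 10 to 2 of 3 under the strict filter, which called 55.2% of its genes, and were 2 to 7 when each array was left out. The lowest came without JP1 T0h replicate 2, when 7.02% of all genes were called. Over all arrays they went from 5 of 10 to 2 of 3 under the strict filter (43.0% of its genes called). Leaving out arrays gave from 3 (7.51% of all genes, without CAT-1 T0h replicate 3) to 6 (15.2%, without CAT-1 T6h replicate 5). At T0h they went from 4 to between 0 and 4 with arrays left out (9.06% of all genes without CAT-1 T0h replicate 3, against 32.7%). At T6h, red signal alone gave 2 for the industrial strains against BY4741 (3.30% of all genes), in place of 0. For CAT-1 against JP1, the strict filter gave 1 of 3 (5.74% of its genes) and red signal alone 2 (5.36% of all genes). Leaving out arrays gave 0 to 1, with 1.79% of all genes where it was 1. For the time change against BY4741 the count was 2 (11.9% of all genes). Processed signals and offset 0 each gave 0 (0.0168%), slide 1 alone 0 (1.03%) and slide as a block 1 (8.82%). The strict filter gave 0 of 3 (33.6% of its genes), with HOM3 and SER33 not among the 3. Leaving out arrays gave 0 to 3 (15.4% of all genes where it was 3).

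Sign changes over time in JP1 and CAT-1 were those of HOM6, at 0.174 with processed signals, 0.198 with slide as a block or slide 1 alone, 0.0763 with red signal alone, 0.103 with red signal on slide 1, and -0.322 to 0.303 with arrays left out. With arrays left out GLY1 ran from -0.815 to 0.147 and SHM2 from -0.191 to 0.927. Over all arrays HOM6 ran from -0.0987 to 0.224. At T0h CHA1 was at -0.127 with processed signals and -0.177 to 0.340 with arrays left out, HOM3 at -0.012 to 0.643, GLY1 at -0.0949 to 0.547 and SER33 at -0.0273 to 0.174. At T6h against BY4741, CHA1 ran from -0.270 to 0.689. For CAT-1 against JP1, HOM2 ran from -0.258 to 0.348, THR1 from -0.332 to 0.282, SER3 from -0.0545 to 0.515 and HOM6 from -0.459 to 0.00338, and for their time changes THR1 ran from -0.235 to 0.839. For the time change against BY4741, HOM2 was at 0.465 with processed signals and -0.797 to 0.0512 with arrays left out, and CHA1 at -0.482 to 1.29. The replicate numbers shared by T0h and T6h belong to different strains, so no paired analysis was possible because no number pairs samples. The weak green signal of slide 2 limits ratios there.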
